A study of Equus caballus with 6 samples.

Results

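Iron export, uptake and storage were examined in the horse (Equus caballus) blastocyst through 10 genes, chosen by symbol in the deposited expression table. They were the exporter SLC40A1, the uptake genes TFRC, TF, STEAP3 and SLC11A2, the ferritin subunits FTH1 and FTL, the heme-degrading enzyme HMOX1 and the iron sensors IREB2 and ACO1. All 10 were among the 12270 rows of the table, and all 10 passed the filter on low values (at least 1 RPKM in at least 3 libraries, 9436 rows). RPKM is reads per kilobase of gene, scaled for depth.

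The blastocysts were produced in vivo in superovulated mares and collected at day 8, and each was treated with the protease Pronase. Trophectoderm (TE), the outer epithelium that later forms placenta, was dissected off mechanically, and the inner cell mass (ICM), which gives rise to the embryo and the hypoblast, was freed of outer cells by immunosurgery. No breed, mare, strain or age is named, and no genetic change is stated. There were 3 ICM libraries (15, 22 and 25) and 3 TE libraries (16, 23 and 24) made from amplified cDNA. Whether the libraries came from separate mares is not stated, so the p-values cover only the spread among these 6 libraries, which may be technical. Tissue and isolation method coincide and cannot be told apart. In bulk tissue, fewer cells of a type and less RNA per cell cannot be told apart either.

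Cells take up iron mainly as transferrin bound to the transferrin receptor. In the endosome the iron is released, reduced by a STEAP reductase and carried into the cytosol by the transporter SLC11A2. Surplus iron is stored in the ferritin shell, built from heavy and light subunits, or leaves through ferroportin, the product of SLC40A1 and the only iron exporter known in mammals. The iron regulatory proteins encoded by ACO1 and IREB2 bind hairpins in several of these mRNAs, where they block translation of ferritin and ferroportin and stabilise the transferrin receptor mRNA. In the mouse, ferroportin acts in extraembryonic tissue that passes maternal iron to the embryo.

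The libraries held 6526212 to 10686659 reads assigned to listed genes. The tissue labels were checked against marker lists: 3 of 6 epiblast genes tested were called higher in ICM, 4 of 7 trophectoderm genes higher in TE, and 0 of either the opposite way (limma, adjusted p under 0.05). Over all genes tested, 0.933% were called higher in each tissue. Of 7 hypoblast genes tested, 1 (PDGFRA) was called, higher in ICM. The filter left out SOX2, PRDM14 and CDX2, and NANOG and GDF3 passed it through their ICM values alone. ICM 25 stood apart. Its summed epiblast markers came to 69.0 RPKM and its summed hypoblast markers to 26.8, against at least 172 and 75.4 in ICM 15 and 22 and 57.6 to 81.8 and 26.0 to 34.7 in the TE libraries. Its summed trophectoderm markers came to 50.2 RPKM, near the 49.8 and 77.9 of ICM 15 and 22 and below the 150.3 to 192 of the TE libraries. The sums are in the deposited scaling. KLF4 (8.09), NANOG (1.75), GDF3 (1.44), PRDM14 (0.94) and SOX2 (0.44 RPKM) were higher in ICM 25 than in every TE library. POU5F1, the largest part of its epiblast sum at 36.0 RPKM, lay within the TE range, as did LIN28A and DPPA4. Of the hypoblast markers, PDGFRA and APOA1 were above every TE library in ICM 25, RBP4 lay within the TE range and the others were below it. Of the 9436 genes tested, 50.9% were lowest in ICM 25 in the scaling of the deposited table, and 25.5% once libraries were rescaled by the median of ratios. That step divided ICM 25 by 0.74 and the other 5 libraries by 1.01 to 1.15. Values below are given with and without ICM 25 where that matters.

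SLC40A1 was the iron gene called different between the tissues, with a mean RPKM 4.58-fold higher in TE. Its levels were 2.89, 1.04 and 1.77 RPKM in ICM 15, 22 and 25, and 9.29, 10.4 and 6.50 RPKM in TE 16, 23 and 24. All 3 TE libraries lay above all 3 ICM libraries, and the lowest TE value was more than double the highest ICM value. These levels rested on 146, 64 and 88 reads in ICM and 499, 409 and 339 reads in TE. As mean ± SD, ferroportin mRNA stood at 1.90 ± 0.93 RPKM in ICM and 8.72 ± 1.995 RPKM in TE (n = 3 each). In rank among all rows of the table, the gene moved from percentile 35.2 of the mean level in ICM to percentile 69.3 in TE.

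The log2 difference of SLC40A1, ICM minus TE on the log2(RPKM + 1) scale, was -1.77 (SE 0.31, 95% interval -2.47 to -1.07, limma adjusted p = 0.033). It was the 39th most TE-biased difference among the 9436 genes tested, and 1 of 10 iron genes called. Over all genes tested, 1.87% were called. Those called higher in TE made up 0.933% of the 9436 genes, and those called higher in ICM another 0.933%. The authors' deposited table gives SLC40A1 a log2 fold change of -2.20 with a DESeq adjusted p of 6.36e-08. By that rule 16.6% of all genes in it have an adjusted p under 0.05, against 1.87% here.

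The sign of the SLC40A1 difference held across settings, while its call did not and its size varied. With 0.1 in place of 1 added to RPKM the difference was -2.22, and by voom on the recovered reads it was -2.30. Without ICM 25 it was -1.76 (limma adjusted p = 0.014), and with any library left out it ran from -2.01 to -1.54. The call was lost without ICM 15 (adjusted p = 0.052) or ICM 22 (0.068), without TE 16 (0.17), TE 23 (0.19) or TE 24 (0.12), and with median of ratios rescaling (0.052). Without any 1 of the TE libraries, at most 1 gene of the whole table was called.

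**Figure D1:**
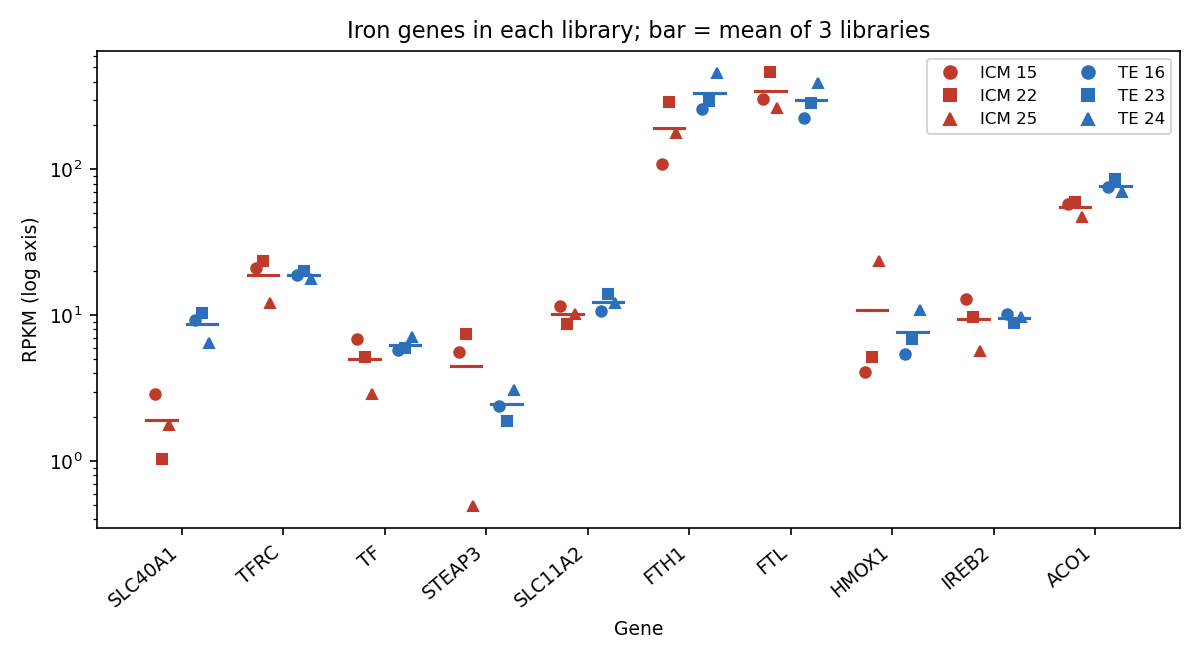
RPKM on a log axis for the 10 iron genes, with a point for each of the 3 ICM and 3 TE libraries and a bar at each mean. SLC40A1 lies at 1.04 to 2.89 RPKM in ICM and 6.50 to 10.4 in TE, the ferritin genes FTH1 and FTL lie highest, and ICM 25 is low for STEAP3 (0.49 RPKM) and high for HMOX1 (23.6 RPKM).

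**Figure D2:**
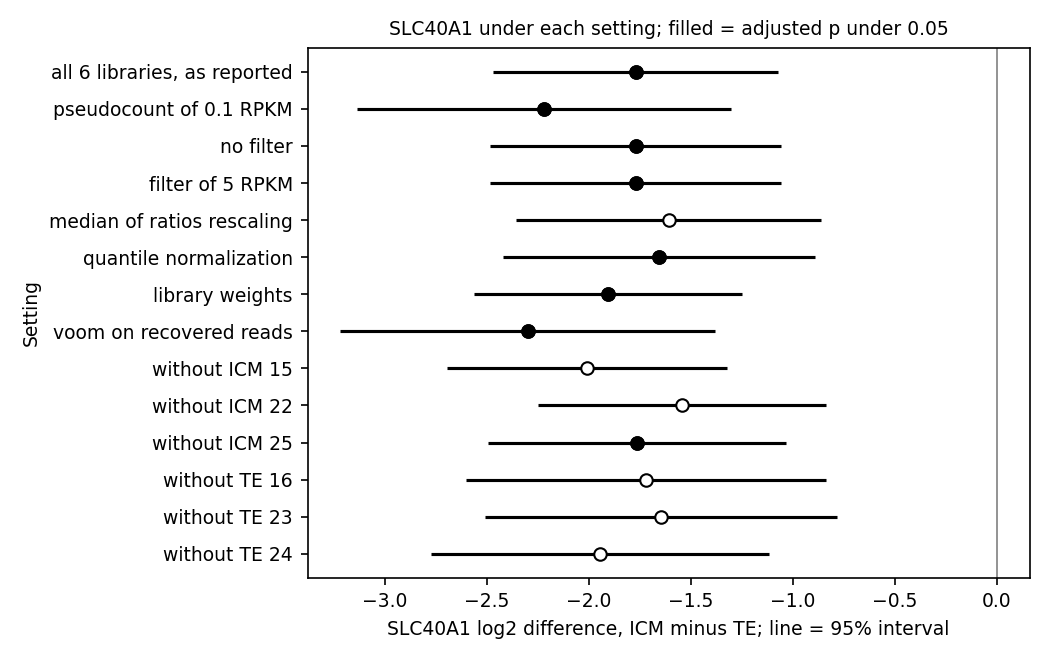
The log2 difference of SLC40A1 (ICM minus TE, horizontal axis) with its 95% interval under each processing setting and with each library left out, filled where the limma adjusted p is under 0.05. The estimates run from -2.30 to -1.54, and 7 of the 13 alternatives keep the call.

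The transferrin receptor did not follow the exporter. TFRC, which brings transferrin into the cell, stood at 21.2, 23.5 and 12.2 RPKM in ICM 15, 22 and 25 and at 18.9, 20.1 and 17.8 RPKM in TE 16, 23 and 24. The TE values lay inside the ICM range, with ICM 25 the lowest of the 6. The means were 19.0 ± 5.97 and 18.9 ± 1.13 RPKM, and the log2 difference was -0.04 (95% interval -0.68 to 0.60, limma adjusted p = 0.96). The interval leaves room for a change of either sign, and the estimate turned to 0.23 without ICM 25 and to 0.14 with median of ratios rescaling, uncalled in both.

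Transferrin mRNA itself, which encodes the iron carrier of plasma, was present at a moderate level in both tissues. TF stood at 6.91, 5.21 and 2.90 RPKM in ICM and at 5.81, 5.94 and 7.15 RPKM in TE, in the library order above. ICM 25 was again the lowest, and the other ICM values overlapped those of TE. The log2 difference was -0.34 (SE 0.30, limma adjusted p = 0.63), and it was -0.05 without ICM 25, -0.18 with median of ratios rescaling and -0.56 without ICM 15. In RefSeq (assembly TB-T2T, used for names and gene order only) the neighbours of TF are INHCA, a close relative of transferrin, and SRPRB, and neither symbol has a row of its own here, so reads of near-identical stretches may be counted under TF.

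STEAP3, the endosomal reductase that turns ferric into ferrous iron, went the other way from SLC40A1 in part of the libraries. It stood at 5.58 and 7.47 RPKM in ICM 15 and 22, at 0.49 RPKM in ICM 25, and at 2.40, 1.88 and 3.09 RPKM in TE 16, 23 and 24. ICM 15 and 22 were above every TE library and ICM 25 below every TE library, with 22 reads against 67 to 415 elsewhere. With all 6 libraries the log2 difference was 0.35 (SE 0.58, limma adjusted p = 0.81). Without ICM 25 it was 1.13 and STEAP3 was called higher in ICM (adjusted p = 0.024), in a fit that called 11.5% of all genes tested. Those with ICM above TE were 5.89% of all genes tested, and those with TE above ICM 5.62%.

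SLC11A2, the divalent metal transporter that moves ferrous iron across membranes, varied little. It stood at 11.7, 8.77 and 10.2 RPKM in ICM and at 10.6, 14.1 and 12.2 RPKM in TE. The groups overlapped, and the log2 difference was -0.25 (95% interval -0.78 to 0.29, limma adjusted p = 0.65). It was -0.07 with median of ratios rescaling, -0.10 with quantile normalization and -0.15 without ICM 22 or TE 23. The deposited coordinates of its row overlap those of ATF1, and strand is not stated, so shared reads cannot be assigned.

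**Figure D3:**
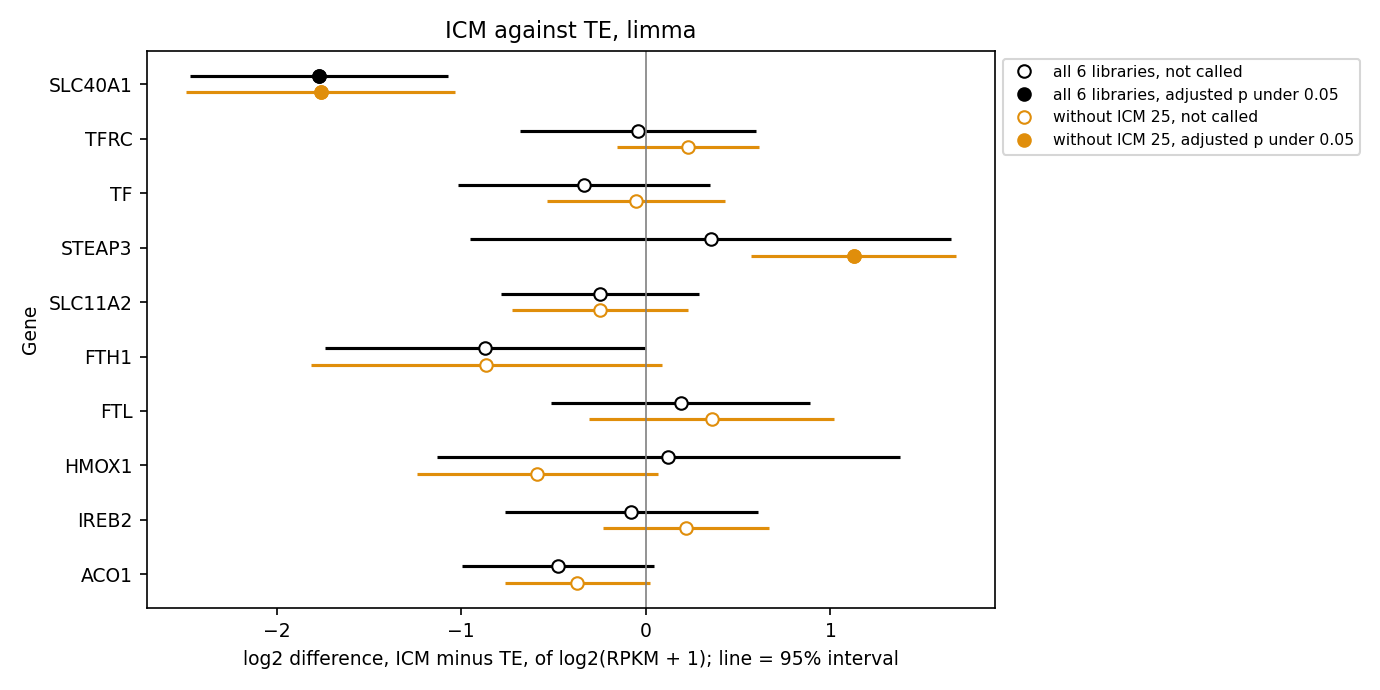
The log2 difference (ICM minus TE, horizontal axis) of each iron gene with its 95% interval from limma, for all 6 libraries (black) and without ICM 25 (orange), filled where called. SLC40A1 is called in both fits, STEAP3 without ICM 25 (1.13), and HMOX1 passes from 0.12 to -0.59.

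Ferritin mRNAs were among the most abundant of the table. FTH1, the heavy subunit with ferroxidase activity, lay at percentile 98.7 of the mean level in ICM and 99.2 in TE, and FTL, the light subunit that aids mineral formation, at 99.2 and 99.1. FTH1 stood at 109, 292 and 176 RPKM in ICM 15, 22 and 25 and at 259, 296 and 454 RPKM in TE 16, 23 and 24. ICM 15 and 25 were below every TE library, and ICM 22 was between TE 16 and TE 23. The log2 difference was -0.87 (SE 0.38, unadjusted p = 0.049 and adjusted p = 0.30 by limma), so FTH1 was not called. It ran from -1.23 without ICM 22 to -0.52 without ICM 15, uncalled in both. The authors' deposited table gives FTH1 a log2 fold change of -0.80 and a DESeq adjusted p of 0.017.

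FTL did not share that tilt. It stood at 306, 462 and 264 RPKM in ICM and at 225, 286 and 392 RPKM in TE, with overlapping groups. The log2 difference was 0.19 (SE 0.31, limma adjusted p = 0.81), and it turned to -0.04 without ICM 22 and to -0.0015 without TE 16. The FTL row needs care: its deposited position is chromosome 1 (75751317 to 75751868), where the whole span of 552 bases equals the counted gene length, so the gene model has no intron. In RefSeq, FTL is on another chromosome between BAX and GYS1, which in the deposited coordinates lie on chromosome 10 (18922431 to 18925761 and 18933089 to 18946403). The row has the layout of an intronless copy. How reads were shared between near-identical copies is not known, so the FTL values are uncertain. The other 9 iron genes lie on the same chromosome in both sources, as do 99.3% of the 9474 symbols compared.

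HMOX1, heme oxygenase, frees iron from heme and is induced by heme and oxidative stress. It stood at 4.12, 5.17 and 23.6 RPKM in ICM 15, 22 and 25 and at 5.39, 6.88 and 10.9 RPKM in TE 16, 23 and 24. ICM 25 was the highest of all 6 libraries and ICM 15 and 22 the lowest, so the tissues had no common direction. The log2 difference was 0.12 (SE 0.55, limma adjusted p = 0.94) with all libraries and -0.59 (adjusted p = 0.23) without ICM 25. Macrophages express HMOX1 strongly. The macrophage and leukocyte markers in the table, 3 of 10 listed (CD68, ITGAM and LYZ), summed to 6.93 RPKM in ICM 25, to 2.27 and 2.28 in ICM 15 and 22 and to 0.66 to 1.59 in the TE libraries. None of these rows passed the filter, and they went in different directions. CD68 was lowest in ICM 25 (0.32 RPKM, 8 reads), against 0.41 to 1.52 RPKM elsewhere. ITGAM (1.73 RPKM) and the LYZ rows (3.67 and 1.21 RPKM) were highest there. The other 7 listed, PTPRC and CSF1R among them, were not analysed here. The part of such cells in the HMOX1 value was not tested.

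The sensor genes differed in level and in pattern. ACO1 encodes iron regulatory protein 1, which is a cytosolic aconitase when it holds an iron-sulfur cluster. It stood at 58.0, 59.9 and 47.3 RPKM in ICM and at 75.4, 85.5 and 69.8 RPKM in TE. In the deposited scaling every TE library was above every ICM library, yet the log2 difference of -0.48 (SE 0.23, 95% interval -0.99 to 0.04) was not called (limma adjusted p = 0.34). After median of ratios rescaling it was -0.29, and ICM 25 (63.9) lay above TE 24 (60.5), so the groups overlapped. ACO1 and SLC40A1 were the iron genes whose groups did not overlap in the deposited scaling, 2 of 10, both higher in TE. Over all genes tested 24.6% of groups did not overlap, 17.8% with TE higher and 6.81% with ICM higher, so that share is near the background. After rescaling SLC40A1 alone of the 10 was left, beside 24.8% over all genes tested.

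IREB2 encodes iron regulatory protein 2, which is degraded when iron is plentiful. It stood at 13.0, 9.81 and 5.65 RPKM in ICM and at 10.2, 8.85 and 9.75 RPKM in TE. The ICM libraries lay on both sides of the TE libraries, with ICM 25 the lowest. The log2 difference was -0.08 (95% interval -0.77 to 0.61, limma adjusted p = 0.93), and it turned to 0.22 without ICM 25.

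Mean RPKM is per counted gene length. With amplified cDNA and an annotation that is not named, it compares levels between genes only roughly. The doubts about the FTL and SLC11A2 rows apply to the order as well. Ordered by mean RPKM, FTL (344) and FTH1 (193) led in ICM, followed by ACO1 (55.1), TFRC (19.0) and HMOX1 (10.9). Then came SLC11A2 (10.2), IREB2 (9.49), TF (5.01), STEAP3 (4.52) and SLC40A1 (1.90). In TE the order was FTH1 (336), FTL (301), ACO1 (76.9), TFRC (18.9), SLC11A2 (12.3), IREB2 (9.60), SLC40A1 (8.72), HMOX1 (7.74), TF (6.30) and STEAP3 (2.46). The exporter was thus the lowest of the 10 in ICM and the seventh in TE. In ICM the neighbours from TFRC to IREB2, and from TF to SLC40A1, differed by less than the SD of the more variable of each pair, so the last place of the exporter there is not firm. In TE the same held for FTH1 and FTL and for the neighbours from IREB2 to TF. ICM 25 was the lowest library for 5 of the 10 (TFRC, TF, STEAP3, IREB2 and ACO1) in the deposited scaling and for 3 of the 10 (TF, STEAP3 and IREB2) after median of ratios rescaling.

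Ratios between iron genes within a library do not depend on how the library was scaled. FTH1 over FTL was 0.36, 0.63 and 0.67 in ICM 15, 22 and 25 and 1.15, 1.04 and 1.16 in TE 16, 23 and 24. By RPKM, the light subunit row was thus the higher in each ICM library and the heavy subunit the higher in each TE library. The mean log2 ratio differed by -1.06 (ICM minus TE, exact permutation test, two-sided, p = 0.1, adjusted over 4 ratios p = 0.2). With 3 libraries a group, 0.1 is the lowest p this test can reach. The doubt about the FTL row applies to this ratio.

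SLC40A1 over TFRC, the exporter against the uptake receptor, was 0.14, 0.044 and 0.15 in ICM and 0.49, 0.52 and 0.36 in TE. The groups did not overlap, and the log2 ratio differed by -2.24 (exact permutation p = 0.1, adjusted p = 0.2). Mean TFRC was nearly the same in both tissues (19.0 and 18.9 RPKM), so this ratio largely repeats the SLC40A1 difference. IREB2 over ACO1 overlapped between the tissues (log2 ratio -2.61 ± 0.45 in ICM and -3.00 ± 0.24 in TE, exact permutation p = 0.3). TFRC over FTH1, uptake against storage, also overlapped (-3.28 ± 0.80 and -4.11 ± 0.49, exact permutation p = 0.2), with ICM 15 the highest of the 6 libraries.

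**Figure D4:**
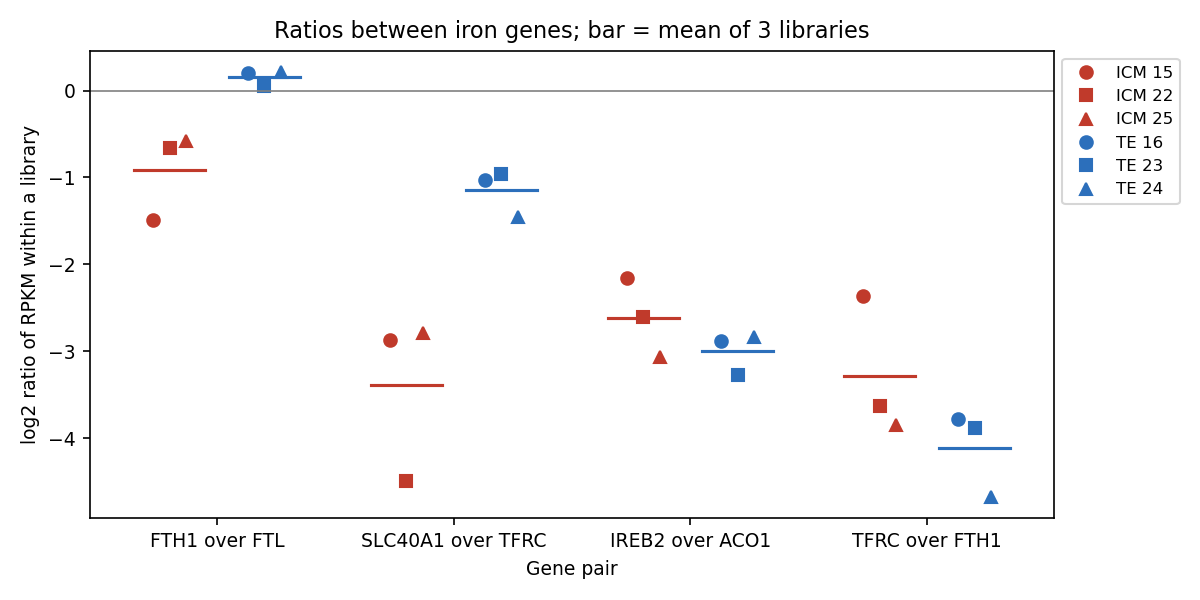
Log2 ratio of RPKM within each library for 4 pairs of iron genes, with bars at the mean of 3 libraries. The ICM and TE libraries are apart for FTH1 over FTL (means -0.91 and 0.15) and SLC40A1 over TFRC (means -3.39 and -1.15), and overlap for the other pairs.

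The rest of the iron pathway was read from 6 lists with 96 genes, of which 74 were in the table and 67 were tested. None of the 67 was called in either direction (limma, and 0 called by voom). Over all genes tested limma called 1.87%, so 0 of 67 is near the background. At an unadjusted p under 0.05 there were 10 of the 67, or 14.9%, beside 16.9% of all genes tested. Their median log2 difference was -0.21 and 50 of 67 were negative, beside -0.15 and 64.7% negative over all genes tested. Without ICM 25, 33 of 67 were negative, beside 50.8% over all genes. After median of ratios rescaling these medians were -0.03 and 0.01, and that of the 10 iron genes passed from -0.16 to 0.01. Without ICM 25, 9 of the 67 were called, 5 higher in ICM and 4 in TE, in the fit that called 11.5% of all genes. Groups did not overlap for 18 of 67 with TE higher and 2 of 67 with ICM higher, beside 17.8% and 6.81% over all genes tested. After median of ratios rescaling these were 10 and 5 of 67, beside 12% and 12.8%.

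Among the 7 iron sensing genes tested, EPAS1 had the smallest p. It encodes HIF-2alpha, an oxygen-regulated factor whose own mRNA carries an iron-responsive hairpin and which is known to activate SLC40A1 and SLC11A2 in the gut. EPAS1 stood at 3.39, 8.43 and 13.0 RPKM in ICM and at 21.6, 33.5 and 27.9 RPKM in TE, with no overlap. Its log2 difference was -1.76 (SE 0.41) and missed the threshold (limma adjusted p = 0.073). Without ICM 25 it was -2.13 (adjusted p = 0.0089), in the fit that called 11.5% of all genes tested. EGLN1, a prolyl hydroxylase that marks HIF proteins for degradation, was at 3.04 ± 0.99 RPKM in ICM and 4.83 ± 0.84 in TE (adjusted p = 0.36). HIF1A had much the same level in every library, 41.9 to 42.7 RPKM in ICM and 42.8 to 46.4 in TE.

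Of the other uptake genes, 8 were tested. SNX3, a sorting nexin that recycles the transferrin receptor, was at 29.0 ± 5.59 RPKM in ICM and 49.5 ± 6.20 in TE (limma adjusted p = 0.17). STEAP2, a metalloreductase like STEAP3, was at 1.02 ± 0.53 against 2.57 ± 0.66 RPKM (adjusted p = 0.17). Both had TE libraries above all ICM libraries, which is the opposite of STEAP3 in ICM 15 and 22. ACP5, the gene of uteroferrin, an acid phosphatase that carries iron in uterine secretions, was read at 2.33 to 6.999 RPKM in ICM and 2.76 to 3.46 RPKM in TE (adjusted p = 0.69). Without ICM 25, SNX3 and STEAP2 stayed uncalled (limma adjusted p = 0.069 and 0.12). In that fit, which called 11.5% of all genes tested, SLC22A17 was called higher in TE (log2 difference -2.28, adjusted p = 0.0087). SLC39A14 was called higher in ICM there (0.81, adjusted p = 0.044).

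Few of the other export genes could be tested. Of 8 export genes in the table, 3 passed the filter. HEPH, the membrane ferroxidase that works with ferroportin, stayed below it at 0.20, 0.44 and 0.11 RPKM in ICM and 0.65, 1.28 and 0.78 in TE. All 3 TE values of HEPH were above the ICM values, at levels that the filter left out of the test. NEO1, a co-receptor of hemojuvelin in hepcidin control, was at 13.0 ± 5.32 RPKM in ICM and 6.21 ± 0.88 in TE (limma adjusted p = 0.18), with every ICM library higher. Without ICM 25 its log2 difference was 1.12 and NEO1 was called (adjusted p = 0.029), in the fit that called 11.5% of all genes tested. The heme exporter FLVCR1 was level, at 8.05 ± 1.76 and 8.56 ± 0.48 RPKM. CP, HAMP and TMPRSS6 were not analysed here.

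In storage and handling 7 genes were tested and 0 called (limma, lowest adjusted p = 0.13), beside 1.87% called over all genes tested. The differences of all 7 were negative in the deposited scaling, where 64.7% of all genes were, but those of 4 without ICM 25 and of 5 after median of ratios rescaling. ATG5, needed for the autophagy that also degrades ferritin, was at 13.3 ± 3.46 RPKM in ICM and 24.5 ± 1.498 in TE. GLRX3, a glutaredoxin that handles iron-sulfur clusters in the cytosol, was at 68.9 ± 16.4 and 91.0 ± 8.84 RPKM (adjusted p = 0.45). The ferritin autophagy receptor NCOA4 was at 33.5 to 46.2 RPKM in ICM and 48.4 to 50.3 in TE, and its groups overlapped after rescaling.

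In heme metabolism 16 genes were tested and 0 called by limma, beside 1.87% called over all genes tested. BACH1, a heme-sensing repressor of HMOX1 and the ferritin genes, was at 14.8, 16.0 and 9.67 RPKM in ICM and 7.27, 8.67 and 6.44 in TE. Every ICM library of BACH1 exceeded every TE library (log2 difference 0.76, SE 0.27, adjusted p = 0.20). Without ICM 25 the difference was 0.96 (adjusted p = 0.020), in the fit that called 11.5% of all genes tested.

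The mitochondrial iron and iron-sulfur cluster list had 26 genes tested and 0 called by limma, beside 1.87% called over all genes tested. Its median log2 difference was -0.24, beside -0.15 over all genes. In the deposited scaling 21 of the 26 were negative, but 12 without ICM 25 and 15 after median of ratios rescaling. Over all genes tested these shares were 64.7%, 50.8% and 49.4%. ABCB10, a mitochondrial transporter that supports heme synthesis, was at 8.97 ± 2.94 RPKM in ICM and 19.6 ± 1.81 in TE (adjusted p = 0.091). Without ICM 25 its adjusted p was 0.032, in the fit that called 11.5% of all genes tested. CIAO1, of the machinery that inserts cytosolic clusters, was at 4.71 ± 2.005 and 9.61 ± 0.29 RPKM (adjusted p = 0.14). SLC25A37, the mitochondrial iron importer, was at 4.02, 3.68 and 1.02 RPKM in ICM and 6.28, 4.39 and 5.10 in TE. Its value in ICM 25 rested on 29 reads. The log2 difference of SLC25A37 was -0.78 (limma adjusted p = 0.33), and -0.36 without ICM 25 (adjusted p = 0.33).

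**Figure D5:**
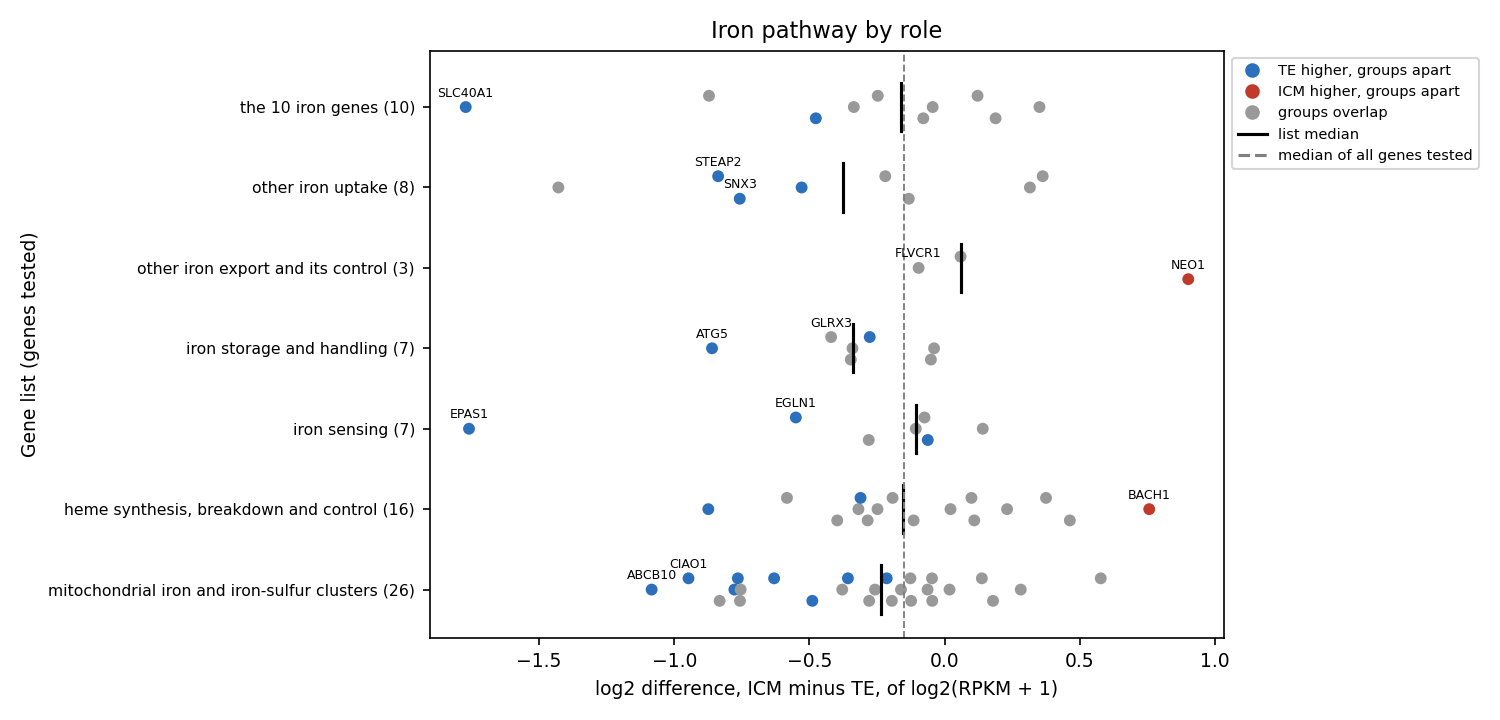
The log2 difference (ICM minus TE, horizontal axis) of each tested gene in the 10 iron genes and the 6 other lists, coloured where the 3 ICM and 3 TE libraries do not overlap in the deposited scaling, with the median of each list (black) and of all genes tested (dashed, -0.15). SLC40A1 and EPAS1 lie farthest to the TE side (-1.77 and -1.76) and NEO1 farthest to the ICM side (0.90). The 1 added to RPKM shrinks differences more at low levels. Mean RPKM in ICM and TE was 1.90 and 8.72 for SLC40A1 and 8.29 and 27.7 for EPAS1.

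The genes most like SLC40A1 in pattern were sought among 5329 others with a mean of at least 5 RPKM, by Pearson correlation of log2(RPKM + 1) over the 6 libraries. These 6 points share 2 tissues and their scaling, so the correlations are a description. The highest were TM9SF2, a membrane protein of endosomes and Golgi (r = 0.991), a gene listed under an Ensembl identifier (0.988), the coatomer subunit COPB1 (0.984), the Golgi protein GOLPH3L (0.977) and FOCAD (0.974). Their changes were smaller than that of SLC40A1 where a symbol is known, for example 37.9 ± 3.51 RPKM in ICM and 50.5 ± 3.75 in TE for TM9SF2 and 7.14 ± 0.69 and 11.1 ± 1.30 for GOLPH3L.

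In the deposited coordinates, whose genome build is not named, SLC40A1 lies on chromosome 18 (66076610 to 66096537) with a counted gene length of 2056 bases, STEAP3 on chromosome 18 (11827971 to 11845250), TFRC on chromosome 19 (33515011 to 33532817) and TF on chromosome 16 (69355220 to 69415432). FTH1 lies on chromosome 12 (21938562 to 21939593), HMOX1 on chromosome 28 (32969651 to 32974348), ACO1 on chromosome 23 (49079235 to 49116283), IREB2 on chromosome 1 (116043971 to 116098820) and SLC11A2 on chromosome 6 (68281548 to 68427716).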

How the data were processed

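The authors deposited 1 table of RPKM for 6 libraries, per the file headers, with DESeq's mean signal (baseMean), the fold as a ratio, its log2 value, the p-value and adjusted p-value, and residual variance scores that were not used. FastQC and DESeq were used by the authors, per the submitters' processing notes. Aligner, counter, build and annotation: not given in the sources used here. RPKM and baseMean together gave back whole reads within 0.001 for 100% of values up to 1000 reads, and gene lengths whole within 0.01 bases.

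The 9436 genes reaching 1 RPKM in 3 or more libraries were analysed as log2(RPKM + 1) by limma 3.58.1 under R 4.3.3 (eBayes with trend, two-sided, Benjamini-Hochberg over all genes, threshold 0.05). The script was tested on simulated data. Ratios were tested with exact permutation tests in scipy 1.17.1. Members and lists were chosen with earlier results of these data known. Besides the members, genes were named if called, or else as the 2 smallest p of a list; 1 such gene is not reported here. ACP5, HIF1A, HEPH, NCOA4, SLC25A37, SLC22A17 and SLC39A14 were named after their values were seen. Settings tried were pseudocount, filter, scaling, weights, voom on the recovered reads and leaving out each library.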

Additional observations from a re-analysis of the deposited data

How the results depend on the processing

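The table yielded 176 calls, 88 in each direction. There were 112 with a pseudocount of 0.1 RPKM, 114 without a filter, 81 when 5 RPKM were required (29 higher in ICM and 52 in TE), 760 with library weights and 0 to 1086 with each library left out. Median of ratios rescaling gave 128 and 64, quantile normalization 129 and 77. Of the iron genes 0 were called with median of ratios rescaling (SLC40A1 at -1.61) and 0 to 2 with a library left out. SLC40A1 kept its sign in all 13 alternatives and its call in 7, and with a library left out ran from -2.01 to -1.54. In the other iron lists, 1 gene was called with quantile normalization, 6 with library weights and 0 to 9 with a library left out. The sign of uncalled genes turned for TFRC (0.14, 0.091 and 0.14 with median of ratios, quantile normalization and library weights, -0.22 to 0.23 with a library left out), IREB2 (0.090, 0.062 and 0.11, and -0.32 to 0.22) and HMOX1 (-0.28 with library weights, and -0.59 to 0.54, being -0.08 without TE 16), and with a library left out for FTL (-0.044 to 0.40, being -0.0015 without TE 16) and STEAP3 (-0.13 to 1.13). The 4 ratios kept their sign in the alternatives run. The cause of these shifts was not tested. No paired analysis was possible because ICM and TE share no library number. The planned edgeR and DESeq2 tests on recovered reads were not run, since the deposited unit is RPKM. Counting error weighs on values from few reads, such as the 22 of STEAP3 in ICM 25, the 64 of SLC40A1 in ICM 22 and the 10 of HEPH in ICM 25, and amplified reads without molecular identifiers understate it.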
